A study of Mus musculus with 10 samples.

Results

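The 7 genes described here encode the cyclin-dependent kinase (CDK) inhibitors of the mouse: Cdkn1a, Cdkn1b and Cdkn1c of the Cip/Kip family and Cdkn2a, Cdkn2b, Cdkn2c and Cdkn2d of the INK4 family. They were taken by symbol, and all 7 were found among the 55487 genes of the count table. The libraries came from livers of mice of strain C57B/6J, as the labels spell it, aged 22 months and kept on normal chow. In 5 libraries the mice carried floxed Arg2 alleles (Arg2fl/fl, called Flox). The other 5 were from co-housed littermates that lack Arg2 in hepatocytes (Arg2LKO, called LKO). The sources used here name no driver of the deletion, and no label says in so many words that each library is a separate mouse, so p-values measure the spread between these libraries only. Whole liver was used, so fewer cells of a type and less RNA per cell cannot be told apart.

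CDK inhibitors bind cyclin-dependent kinases and hold the cell before division. The Cip/Kip proteins p21 (Cdkn1a), p27 (Cdkn1b) and p57 (Cdkn1c) bind kinase and cyclin together, whereas the INK4 proteins p16, p15, p18 and p19 bind the kinases CDK4 and CDK6 before cyclin D does. Cdkn1a is the classical target of the tumour suppressor p53, Cdkn2a is the transcript most used as a marker of senescent cells, and hepatocytes are quiescent for most of life. Cdkn1a is also known as a gene of the circadian clock in liver, where its transcript rises and falls over the day and the nuclear receptor REV-ERB alpha represses it.

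Library totals ranged from 43331354 to 54951415 counts. Values are given in CPM, the counts scaled to a common library total with TMM factors. A count of 0 would allow up to 0.0546 to 0.0692 CPM, a limit that covers counting error only, and no CDK inhibitor was at 0 in any library. The liver marker Alb stood at 35270 to 122600 CPM, lowest in Flox 3 and Flox 2. Flox 3, 2 and 4 had the highest scores of 20 acute phase genes (11.19, 10.27 and 9.56, against 6.94 to 8.85 in the other 7 libraries; the score averages log2 CPM over the list). LKO libraries are called by their column number, 1 to 5, which could not be linked to the sample titles.

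The sequences before the starts of Cdkn1a and of a pair of clock genes that varied with it are shown because p53 and the clock are the regulators its values are set against below. Each runs 5′ to 3′ on the gene's strand over the 250 bases before an annotated start (RefSeq, GRCm38.p6), and capitals mark matches to 4 motifs searched on both strands. These were the E-box CACGTG of the factors CLOCK and BMAL1, the half-site AGGTCA of nuclear receptors such as REV-ERB, the D-box TTANGTAA of the factors DBP and NFIL3, and CATGNNNNNNCATG, the paired cores of abutting p53 half-sites.
Cdkn1a upstream start, chr17:29090729-29090978, plus strand: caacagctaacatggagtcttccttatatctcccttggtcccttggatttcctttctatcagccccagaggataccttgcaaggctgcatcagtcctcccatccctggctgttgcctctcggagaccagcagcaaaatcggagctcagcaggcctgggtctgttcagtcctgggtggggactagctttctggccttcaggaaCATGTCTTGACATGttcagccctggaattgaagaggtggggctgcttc
Cdkn1a downstream start, chr17:29093519-29093768, plus strand: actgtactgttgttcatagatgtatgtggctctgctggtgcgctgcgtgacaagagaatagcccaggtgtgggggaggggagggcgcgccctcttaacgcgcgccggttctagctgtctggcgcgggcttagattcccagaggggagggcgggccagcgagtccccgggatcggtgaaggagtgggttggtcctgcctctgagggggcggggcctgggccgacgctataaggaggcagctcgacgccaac
Nfil3, chr13:52981040-52981289, minus strand: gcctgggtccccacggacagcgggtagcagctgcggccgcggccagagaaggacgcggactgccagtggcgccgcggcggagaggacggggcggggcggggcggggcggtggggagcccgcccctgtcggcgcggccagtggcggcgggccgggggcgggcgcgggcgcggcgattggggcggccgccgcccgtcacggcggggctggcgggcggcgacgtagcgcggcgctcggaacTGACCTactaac
Per3, chr4:151044666-151044915, minus strand: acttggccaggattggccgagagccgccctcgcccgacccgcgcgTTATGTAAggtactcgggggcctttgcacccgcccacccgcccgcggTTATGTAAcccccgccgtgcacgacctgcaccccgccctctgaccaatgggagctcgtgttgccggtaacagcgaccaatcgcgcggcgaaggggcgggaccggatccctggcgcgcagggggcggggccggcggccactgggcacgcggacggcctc
The window of the upstream Cdkn1a start held the paired p53 cores, beginning 48 bases before the start, a match found in 0.49% of the 32851 promoters of this length. The window of the downstream Cdkn1a start matched none of the 4 motifs. Nfil3 held a nuclear receptor half-site 12 bases before its start (14% of promoters hold one), and Per3 held 2 D-boxes, 205 and 158 bases before its start (2.06% hold one). The E-box was in 6.02% of promoters and in none of these 4 windows. Windows of other genes were searched and are not shown. Those of Dbp, Nr1d1 and Gfer matched none of the 4 motifs. The bases after the Nr1d1 start were not found in a GENCODE transcript of that gene, unlike those of the other windows, so its window may not lie before a start in use. Nr1d2 held a half-site 77 bases and Cry1 an E-box 60 bases before the start. Of the 7 CDK inhibitors 6 had an entry, with 9 windows in all. The half-site was found in 2 of the 9, 1 window of Cdkn2a and 1 of Cdkn2c. A match describes the letters only.

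Per length, Cdkn1b was above every INK4 transcript in all 10 libraries, while the rank of Cdkn1a differed between libraries. Dividing CPM by the exon length in kilobases gave mean levels over the 10 libraries of 3.59 ± 3.17 for Cdkn1a, 3.39 ± 0.462 for Cdkn1b, 1.60 ± 0.436 for Cdkn2d, 1.01 ± 0.389 for Cdkn2c, 0.518 ± 0.366 for Cdkn2a, 0.398 ± 0.113 for Cdkn1c and 0.311 ± 0.125 for Cdkn2b (CPM per kb, SD, n = 10). The ranges of neighbours in this order overlapped in every case. Within each of the 10 libraries, Cdkn1b was nevertheless above Cdkn2d, and Cdkn2c above Cdkn2a. The order of the other neighbours changed between libraries. Cdkn1b ranged from 2.5 to 4.28 CPM per kb, above all values of Cdkn2c (0.619 to 1.86) and of the 3 genes below it. Cdkn1a lay above Cdkn1b in 4 libraries and below it in 6. It also lay below Cdkn2d in 4 libraries, Flox 4 and 5 and LKO columns 3 and 5 (1.23 to 1.62 against 1.62 to 1.76 CPM per kb).

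The study compared LKO with Flox livers, and no CDK inhibitor passed the test. By edgeR's quasi-likelihood test 0 of 7 passed an adjusted p of 0.05, as did 0 of all 15894 genes tested (0%). At an unadjusted p of 0.05 the count was 0 of 7, where 7.51% of all genes (1193) lay under it, 4.33% with lower and 3.17% with higher values in LKO. With 1 library left out that count was 2 without Flox 5 (Cdkn1a and Cdkn2a) and without LKO column 5 (Cdkn1b and Cdkn2a), 1 without Flox 4 and without LKO column 1 (Cdkn1a in both), and 0 in the other 6 cases. Over all genes tested it was 1885 without Flox 5, 1264 without LKO column 5, 1107 without Flox 4 and 956 without LKO column 1. DESeq2 gave an adjusted p to 2 of the 7, Cdkn1a and Cdkn1b, and called neither, with 0.13% of its 7704 genes called (10). Limma-voom called 0 of 7 and 0% of all genes. Unadjusted, 4.87% of genes were under 0.05 by DESeq2 and 6.6% by limma-voom, and 0 of 7 by either. The groups overlapped for all 7 genes (they did not for 0.906% of all genes). Values were lower in LKO for 4 of 7 (51.6% of all genes), namely Cdkn1a, Cdkn1c, Cdkn2a and Cdkn2d. The median log2 fold change was -0.13 for the 3 Cip/Kip genes and -0.12 for the 4 INK4 genes, beside -0.01 over all genes.

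**Figure D1:**
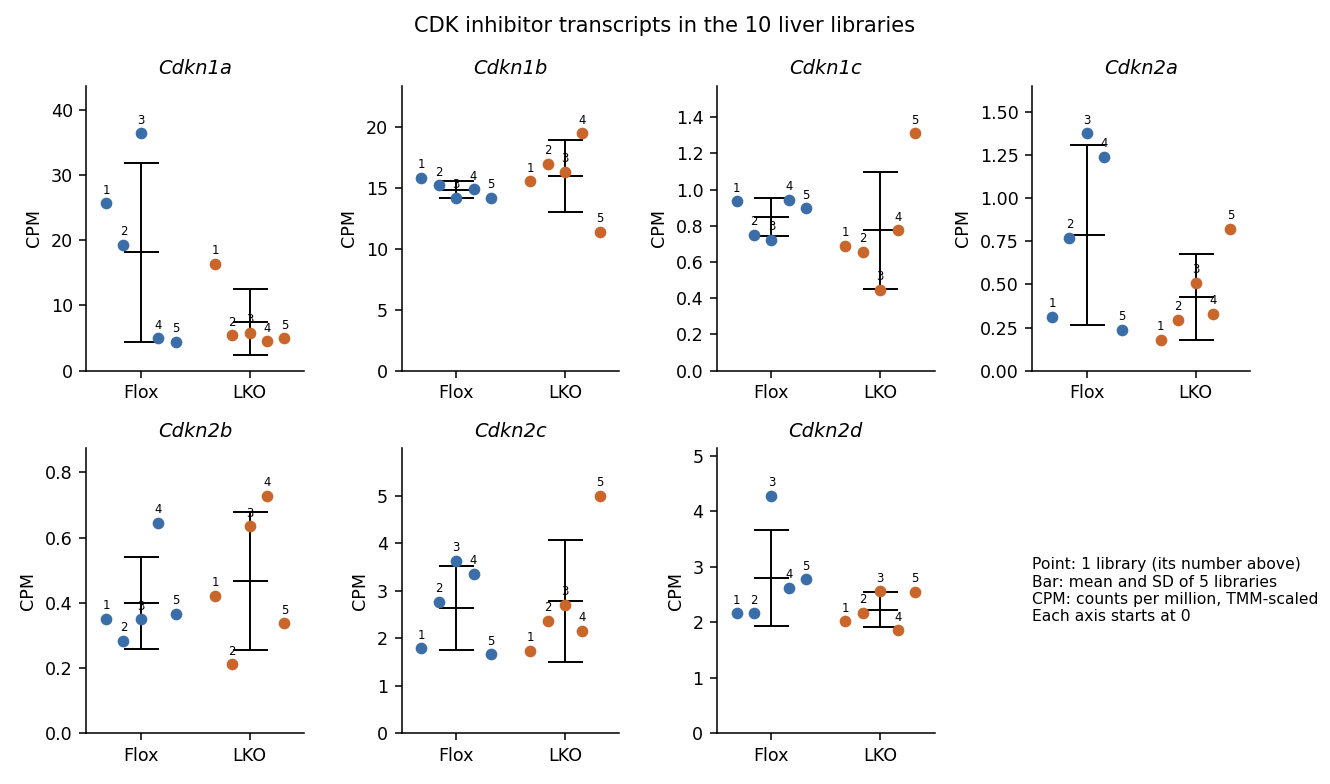
CPM (vertical axes, from 0) of each CDK inhibitor in the 5 Flox (blue) and 5 LKO (orange) libraries, with the library number above each point and the mean and SD as bars. Cdkn1a was high in Flox 1, 2 and 3 and LKO column 1 (16.4 to 36.4 CPM) and at 4.39 to 5.76 CPM in the other 6 libraries, while Cdkn1b stayed between 11.4 and 19.5 CPM.

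Among the Cip/Kip genes, Cdkn1a (p21; ENSMUSG00000023067, chromosome 17, 29090976 to 29100727, plus strand, GRCm38) had the widest range of the 7 CDK inhibitors. It was at 25.6, 19.3, 36.4, 4.96 and 4.39 CPM in Flox 1 to 5 and at 16.4, 5.41, 5.76, 4.51 and 4.96 CPM in LKO columns 1 to 5. Flox 1, 2 and 3 and LKO column 1 were thus high, the other 6 libraries of both groups were low, and the highest value was 8.29 times the lowest. The Flox mean was 18.1 ± 13.7 CPM and the LKO mean 7.40 ± 5.05 CPM (SD, n = 5 each). The log2 fold change, LKO minus Flox, was -1.29 ± 0.64 (SE; edgeR, adjusted p = 0.654), with a 95% interval of -2.77 to 0.19. It moved to -1.81 without LKO column 1, -0.86 without Flox 3, -0.65 without Flox 2 and 3 and -0.77 by limma-voom. The LKO mean was 5.16 ± 0.542 CPM without column 1. A short gene on the opposite strand (AC167363.2) shares 273 exon bases with Cdkn1a, and its reads cannot be told apart, since the sources used here do not state strandedness.

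Cdkn1b (p27; ENSMUSG00000003031, chromosome 6, 134920401 to 134925513) was the steadiest CDK inhibitor, with a coefficient of variation of 13.6% over the 10 libraries against 88.2% for Cdkn1a. It stood at 15.8, 15.2, 14.2, 14.9 and 14.2 CPM in Flox 1 to 5 and at 15.6, 17, 16.4, 19.5 and 11.4 CPM in LKO columns 1 to 5. Both the lowest and the highest library were LKO, and the Flox libraries lay between them. Its log2 fold change was 0.10 ± 0.13 (SE; edgeR, adjusted p = 0.822), with a 95% interval of -0.19 to 0.39, and was 0.21 without LKO column 5 and 0.02 without LKO column 4.

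Cdkn1c (p57; ENSMUSG00000037664, chromosome 7, 143458339 to 143461050), an imprinted gene expressed from the maternal allele, was scarce at 21 to 70 counts a library. It was at 0.935, 0.749, 0.721, 0.942 and 0.895 CPM in Flox 1 to 5 and at 0.688, 0.655, 0.444, 0.775 and 1.31 CPM in LKO columns 1 to 5. LKO column 5 was the highest and column 3 the lowest of all 10 libraries. LKO minus Flox, the log2 fold change was -0.13 ± 0.28 (SE; edgeR, adjusted p = 0.907), with a 95% interval of -0.79 to 0.53. It was -0.40 without LKO column 5, and the sign turned without LKO column 3 (0.02). An antisense gene (Gm44732) shares 625 of its exon bases.

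Among the INK4 genes, Cdkn2a (p16 and, from another first exon and reading frame, p19ARF; ENSMUSG00000044303, chromosome 4, 89274471 to 89294653) was rare. It had 8 to 71 counts a library, and the gene counts do not separate its products. It was at 0.312, 0.769, 1.38, 1.24 and 0.238 CPM in Flox 1 to 5 and at 0.177, 0.296, 0.508, 0.329 and 0.824 CPM in LKO columns 1 to 5. Flox 3 and 4 were highest, followed by LKO column 5 and Flox 2, and the groups overlapped. Between the groups the log2 fold change was -0.87 ± 0.54 (SE; edgeR, adjusted p = 0.671), with a 95% interval of -2.10 to 0.37. Leaving out Flox 3 gave -0.58 and leaving out Flox 2 and 3 gave -0.48. Leaving out LKO column 5 gave -1.26 (unadjusted p = 0.0456; edgeR, adjusted p = 0.617), leaving out Flox 5 gave -1.10 (unadjusted p = 0.0469; edgeR, adjusted p = 0.420), and the clock score described below gave -1.09. Adding the acute phase score to the model gave 0.09 ± 0.52. That score averaged 9.15 ± 1.73 over the Flox and 7.84 ± 0.724 over the LKO libraries (SD, n = 5 each). Of its 20 genes 0 had higher values in LKO, where 48.4% of all genes did (median log2 fold change -1.40). By edgeR 0 were past the adjusted threshold and 13 at an unadjusted p under 0.05, where 7.51% of all genes lay. The score and the group differed together, so their parts in Cdkn2a cannot be told apart, and the part of the acute phase was not tested.

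Cdkn2b (p15; ENSMUSG00000073802, chromosome 4, 89306299 to 89311039), 11645 bases from Cdkn2a, had the lowest level per length. It was at 0.351, 0.283, 0.349, 0.646 and 0.365 CPM in Flox 1 to 5 and at 0.421, 0.211, 0.635, 0.728 and 0.337 CPM in LKO columns 1 to 5. Flox 4 and LKO columns 3 and 4 were high, which is not the order of its neighbour Cdkn2a. Its log2 fold change was 0.21 ± 0.38 (SE; edgeR, adjusted p = 0.881), with a 95% interval of -0.66 to 1.09, on 10 to 37 counts a library. With 1 library left out it ranged from 0.00 (LKO column 4) to 0.46 (Flox 4).

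Cdkn2c (p18; ENSMUSG00000028551, chromosome 4, 109660876 to 109667189) was at 1.79, 2.77, 3.63, 3.35 and 1.66 CPM in Flox 1 to 5 and at 1.73, 2.37, 2.71, 2.16 and 4.998 CPM in LKO columns 1 to 5. LKO column 5 stood above all others, and Flox 1, Flox 5 and LKO column 1 were the lowest. The log2 fold change was 0.08 ± 0.31 (SE; edgeR, adjusted p = 0.945), with a 95% interval of -0.64 to 0.80, and the sign turned without LKO column 5 (-0.23), Flox 1 (-0.03) or Flox 5 (-0.05). Cdkn2d (p19INK4D; ENSMUSG00000096472, chromosome 9, 21288410 to 21291407) was at 2.16, 2.17, 4.28, 2.62 and 2.78 CPM in Flox 1 to 5 and at 2.02, 2.18, 2.56, 1.86 and 2.55 CPM in LKO columns 1 to 5. Only Flox 3 stood apart, and the other Flox libraries overlapped with LKO. The log2 fold change was -0.33 ± 0.21 (SE; edgeR, adjusted p = 0.678), with a 95% interval of -0.81 to 0.16, and it was -0.12 without Flox 3.

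**Figure D2:**
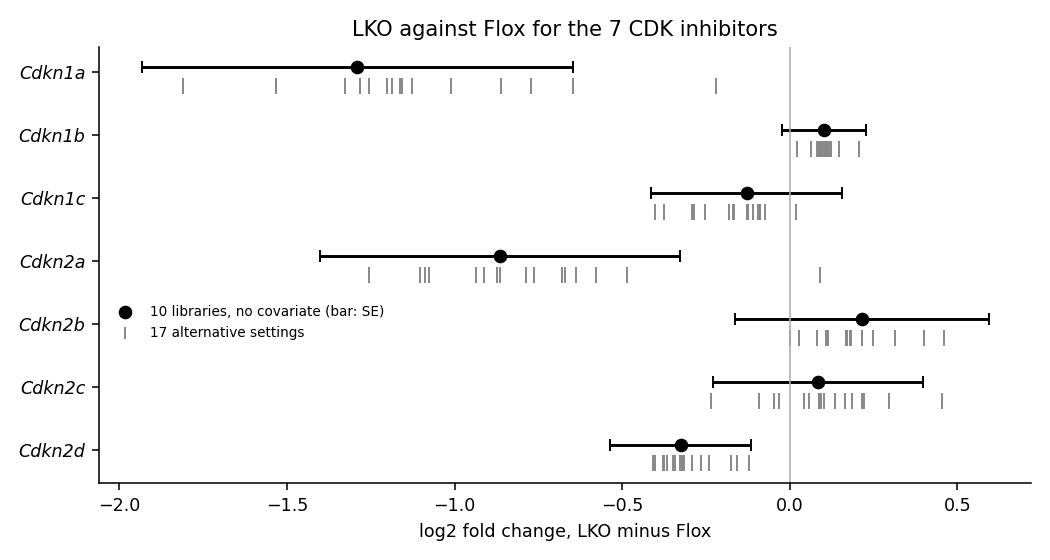
Log2 fold change, LKO minus Flox (horizontal axis), of each CDK inhibitor. Black points are the fit over 10 libraries with SE bars and grey ticks the 17 alternative settings. Cdkn1a ranged from -1.81 to -0.22 and Cdkn2a from -1.26 to 0.09 over the settings, and all 17 values of Cdkn1a were below 0. The -0.22 came with the clock score described below, which was taken because most of its genes track Cdkn1a. Most settings refit subsets of the same 10 libraries, so the ticks are not independent.

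From library to library, Cdkn1a was high in the libraries in which most of the circadian clock genes listed stood at 1 end of their range. There were exceptions, among them Nr1d1 and Per2 in LKO column 1 and genes with a weaker likeness to Cdkn1a, named by list below. The log2 CPM values of Cdkn1a fell into 2 separate sets, 4 libraries above and 6 below a gap of 1.503 log2 units, wider than the range within the upper (1.15) or the lower set (0.39). Pearson's r over all 10 libraries mostly measures this split, so it is used below only as a measure of likeness, without a p-value. Of the 15893 other genes tested, 340 (2.14%) had an r above 0.8 or below -0.8 with Cdkn1a.

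Nr1d2, which encodes the clock repressor REV-ERB beta, was the gene least like Cdkn1a of the 11012 compared (average log2 CPM of at least 1; r = -0.99, Spearman's rho = -0.92). It was at 17.6, 23.4, 16.6, 46.2 and 58.1 CPM in Flox 1 to 5 and at 25.1, 46.4, 46.3, 61.5 and 56.0 CPM in LKO columns 1 to 5. The 4 libraries with the most Cdkn1a were thus the 4 with the least Nr1d2, in both groups. Dbp, an output factor of the clock (r = -0.95), was at 0.798, 1.68, 1.97, 47.3 and 91.0 CPM in Flox 1 to 5 and at 3.13, 35.02, 41.1, 34.5 and 111 CPM in LKO columns 1 to 5. Nfil3, the repressor that opposes DBP at D-boxes (r = 0.96), was at 56.6, 61.3, 68.6, 12.6 and 11.7 CPM in Flox 1 to 5 and at 41.4, 20.9, 20.3, 16.5 and 10.7 CPM in LKO columns 1 to 5. Dbp was low and Nfil3 high in Flox 1, 2 and 3 and LKO column 1, as was Cdkn1a. Nr1d1, which encodes REV-ERB alpha, did not follow this in full. It was at 31.6, 41.2, 26.9, 66.2 and 127 CPM in Flox 1 to 5 and at 90.04, 93.7, 96.5, 87.6 and 79.9 CPM in LKO columns 1 to 5, so LKO column 1, high in Cdkn1a, was not low in Nr1d1. The period gene Per2 was at 12.2 CPM in LKO column 1, above LKO columns 2 and 3 (10.4 and 11.5 CPM).

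The other genes most like Cdkn1a were Gfer, a sulfhydryl oxidase of mitochondria (r = 0.97), Rnf7, a RING subunit of cullin ubiquitin ligases (0.96), Mrm2, a methyltransferase of mitochondrial ribosomal RNA (0.95), Slc45a3 (0.94), Fpgs, which adds glutamate tails to folates (0.94), Nr1h3, the oxysterol receptor LXR alpha (0.94), Palld, an actin-binding protein (0.94), Gm29966 (0.93) and Scaf1 (0.93). The others on the opposite side were Ppargc1b, the coactivator PGC-1 beta (r = -0.97), Slc40a1, the iron exporter ferroportin (-0.95), and the clock gene Per3 (-0.94). These 15 genes were picked as the extremes of r over these libraries, so their r is a description of the pick. Of these 15, only Nr1d2 was still past 0.8 in size within the 6 libraries below the gap (-0.83). Genes of cell type lists that were not past 0.8 over all 10 libraries also passed it there, such as Spp1 (0.92), Dcn (-0.91) and Hba-a1 (0.86). The share over all genes was not computed for these 6 libraries, so this value does not set Nr1d2 apart.

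**Figure D3:**
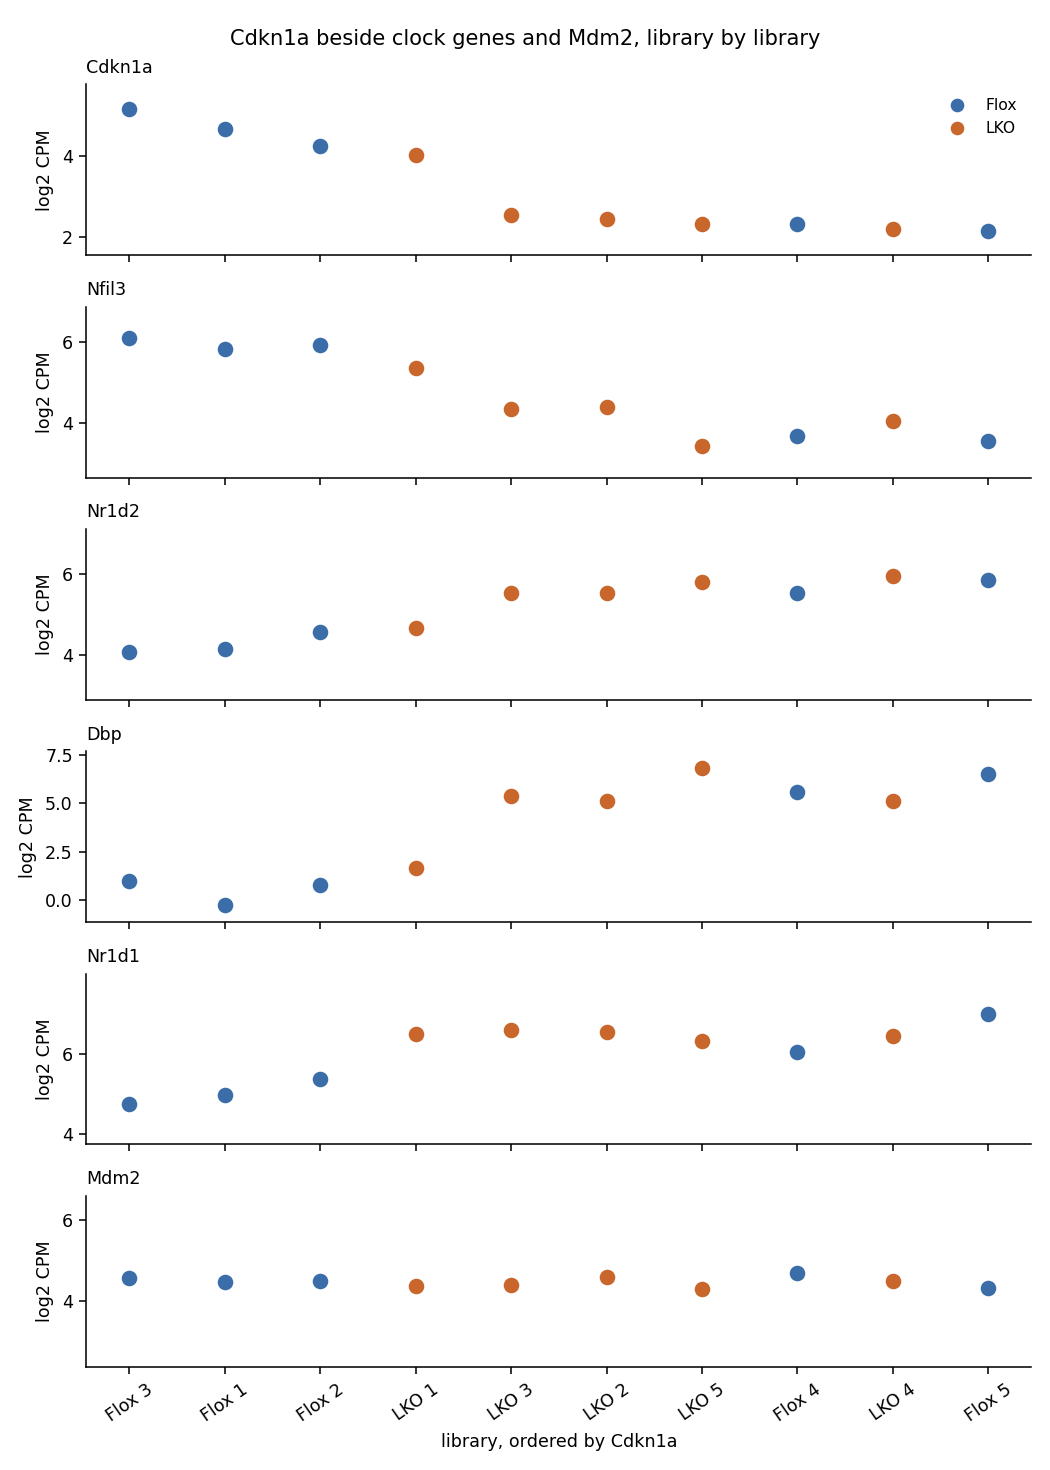
Log2 CPM (vertical axes) of Cdkn1a, the clock genes Nfil3, Nr1d2, Dbp and Nr1d1 and the p53 target Mdm2, with the 10 libraries ordered by Cdkn1a (Flox blue, LKO orange). The 4 libraries at the left have high Nfil3 and low Nr1d2 and Dbp, Nr1d1 is low in 3 of them but not in LKO column 1 (90.0 CPM), and Mdm2 lies between 19.5 and 25.5 CPM in all 10.

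By list, 8 of the 10 clock genes high with Dbp had an r below -0.8 with Cdkn1a (80%) and 3 of the 5 that are high with Bmal1 had one above 0.8 (60%), beside 2.14% of all genes. Not past 0.8 in size were Usp2 (-0.77) and Hlf (-0.44) of the first list and Arntl (0.79) and Clock (0.49) of the second. The period gene Per1, on another list, had r = -0.54. Of the 18 other p53 targets tested 0 were past 0.8 in size, with a median r of 0.10. At the 2.14% share of all genes a list of 18 would mostly hold 0, so this count does not set them apart. Mdm2, the p53-induced ubiquitin ligase of p53, was at 22.1, 22.5, 23.4, 25.5 and 19.8 CPM in Flox 1 to 5 and at 20.5, 23.8, 20.9, 22.3 and 19.5 CPM in LKO columns 1 to 5 (r = 0.15). Its range did not separate the libraries high in Cdkn1a from the rest. Trp53 itself was at 12.8 to 17.5 CPM (r = -0.28). The p53 target nearest to Cdkn1a on the positive side was Zmat3, a zinc finger protein (0.64), and on the negative side Sesn1, a sestrin (-0.72). None of 12 senescence genes, 23 genes of mitosis and replication, 12 CDKs and cyclins or 20 acute phase genes was past 0.8 in size. At the 2.14% share of all genes, lists of these sizes would also mostly hold 0. All 20 acute phase genes had a positive r (0.13 to 0.60, median 0.46). The median r was 0.01 for the senescence, -0.03 for the mitosis and -0.26 for the CDK and cyclin list. Single genes of other lists were: Foxo3 (-0.89), Irs2, an insulin receptor substrate (0.84), Atf5 (0.84) and the B cell marker Ms4a1 (-0.82). Acute phase genes and Cdkn1a were both high in Flox 2 and 3, but Flox 1 and LKO column 1, also high in Cdkn1a, had low acute phase scores (7.61 and 6.94), and Flox 4, low in Cdkn1a, had 9.56.

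**Figure D4:**
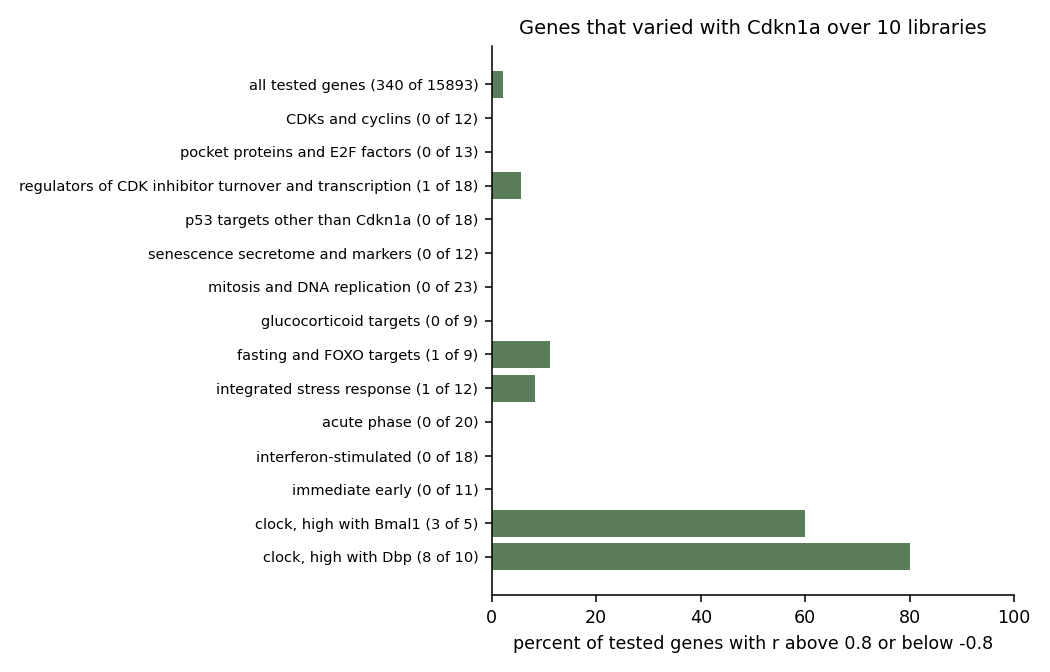
Percent of the tested genes of each list (horizontal axis) whose Pearson r with Cdkn1a over the 10 libraries was above 0.8 or below -0.8, with the count behind each bar. The clock lists reach 60% and 80%, all tested genes 2.14%, and the list of other p53 targets 0%. At 2.14% a list of 18 genes, as for the p53 targets, would mostly hold 0.

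The clock scores also differed in their group means, by less than the SD in Flox. For the 10 genes high with Dbp the score was 3.09 ± 1.47 (Flox) and 3.99 ± 0.858 (LKO; SD, n = 5 each), and all 10 genes had higher values in LKO (48.4% of all genes did), with a median log2 fold change of 0.50 and 0 past the adjusted threshold (edgeR, smallest adjusted p = 0.674). Nr1d1 averaged 58.7 ± 41.3 CPM over Flox and 89.6 ± 6.37 over LKO libraries, and Per2 10.7 ± 6.00 and 16.04 ± 7.62 CPM. Of the 5 genes high with Bmal1 1 had higher and 4 lower values in LKO, with 0 past the test (median -0.48). Nfil3 averaged 42.2 ± 27.8 and 21.9 ± 11.6 CPM, and Cry1, a cryptochrome, 8.51 ± 3.97 and 6.98 ± 2.43 CPM. With the first of these clock scores in the model, a choice made after seeing the data, the log2 fold change of Cdkn1a was -0.22 ± 0.27 (SE; edgeR, adjusted p = 0.894). The score was taken because 8 of its 10 genes track Cdkn1a, so a smaller value was fixed by that choice and is no separate result. The score ran from 1.82 to 4.95 in Flox and from 2.75 to 5.16 in LKO. The sources used here do not give the times at which the livers were taken, and the part of time of day in these values was not tested.

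Within the 6 libraries below the gap, where Cdkn1a spans 0.39 log2 units, none of 21 measures set against it passed. These were the scores of 11 pathway lists and 9 lists of cell type markers, and the library total. The largest was the score of 7 erythroid markers (Pearson r = 0.76, exact permutation p = 0.0833; rho = 0.77, exact permutation p = 0.103; adjusted p = 0.901 and 0.803). The clock genes high with Dbp had r = -0.55 (exact permutation p = 0.261) and the other p53 targets r = 0.13 (exact permutation p = 0.807). With 720 pairings and 21 measures, a single measure could not pass by rho even with a perfect rank order. The 6 libraries were also chosen by Cdkn1a itself, which had 192 to 284 counts in them. That none passed is therefore no sign that a relation is absent. Coefficients were not computed within a group of 5 or within the upper 4 libraries, which are under the minimum of 6 set for them.

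Among the other 6 CDK inhibitors, Cdkn2a and Cdkn2c varied together. Over the 10 libraries their log2 CPM had a Pearson r of 0.86 (permutation p = 0.00179, adjusted p = 0.0269 over 15 pairs) and a Spearman rho of 0.92 (permutation p = 0.0005, adjusted p = 0.0075). Without the 2 libraries farthest from the median of Cdkn2a, Flox 3 and 4, r was 0.87, and after the group means were subtracted it was 0.95. The same 4 libraries, Flox 2, 3 and 4 and LKO column 5, held the highest values of both genes, and Flox 1, Flox 5 and LKO column 1 were low in both. With 1 library left out r stayed between 0.83 and 0.94, and the adjusted p, smallest without LKO column 5 (0.00223), stayed under 0.05 only there and without Flox 4 (0.0454). In the other 8 cases it was 0.0511 to 0.0845. No other pair passed: next were Cdkn2a with Cdkn2d (r = 0.63, permutation p = 0.0371, adjusted p = 0.276), where r was 0.26 without Flox 3 and 4, and Cdkn1b with Cdkn1c (r = -0.61, permutation p = 0.0602, adjusted p = 0.276).

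**Figure D5:**
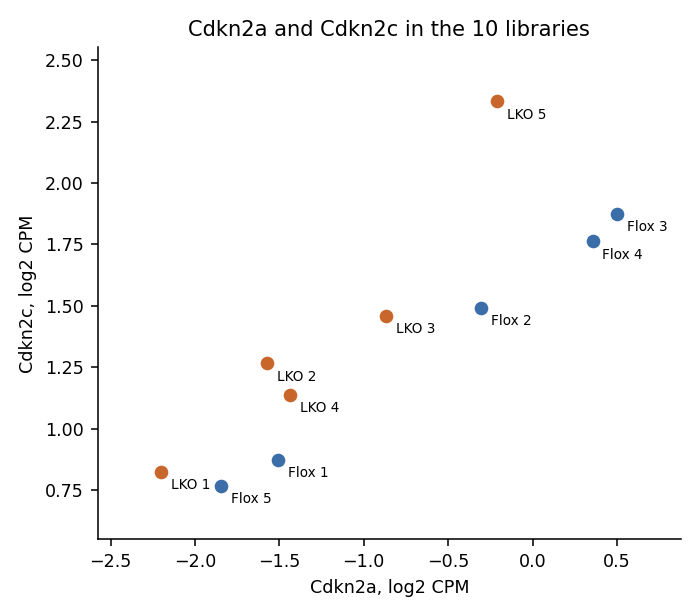
Cdkn2a (horizontal axis) and Cdkn2c (vertical axis) in log2 CPM, 1 point per library (Flox blue, LKO orange). Libraries of both groups lie along 1 rising line, with LKO column 5 above it (r = 0.86, n = 10).

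Marker scores of some other cells are set beside Cdkn2a here. T and NK cell markers, 8 tested of 9, had scores of -1.23, -0.06, 0.20, 0.13 and -0.83 in Flox 1 to 5 and of -1.94, -0.82, -1.19, -1.04 and -1.09 in LKO columns 1 to 5. The Flox libraries rich in Cdkn2a were rich in them, and LKO column 5 was not. The summed level of this list was 4.29 to 11.6 CPM in Flox and 2.03 to 5.45 CPM in LKO, and of its 9 genes Klrd1, in 1 library, was at 0. Endothelial markers had scores of 3.56, 3.14, 3.55, 3.82 and 3.37 in Flox 1 to 5 and of 2.96, 3.37, 3.33, 3.42 and 3.69 in LKO columns 1 to 5. Flox 4 and LKO column 5 were highest, but Flox 2, rich in Cdkn2a, was the lowest Flox library, and Flox 1, poor in it, was level with Flox 3. The list had summed levels of 85.4 to 134 and 69.7 to 111 CPM and none of the 8 at 0. Kupffer cell scores were lowest in LKO column 1 (1.95) and Flox 5 (2.49), the libraries lowest in Cdkn2a. So were neutrophil scores, from 3 tested genes of 6 (-1.31 and -2.16). Both were high in LKO column 2 (5.36 and 1.56), poor in Cdkn2a. The part of these cells in the values of Cdkn2a and Cdkn2c was not tested. The genes most like Cdkn2a were Gm44950 (r = 0.94), E2f4, an E2F factor of quiescent cells (0.94), and Sema6b (0.94), and Gm44950 was also among the 3 most like Cdkn2c (0.86), with Mllt6 (0.88) and Itpripl2 (0.85). For Cdkn1b they were Fer, Polb and Cpeb2 (0.96, 0.95 and 0.94), for Cdkn1c Mfsd2a, Fkbp7 and Tradd (0.87, 0.87 and 0.86), for Cdkn2b Zdhhc17, Zdhhc14 and Gata4 (0.96, 0.92 and 0.88), and for Cdkn2d Ifngr2, Rnf19b and Rbck1 (0.98, 0.94 and 0.93). These genes were picked as the closest of 11012.

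No gene on the lists around the CDK inhibitors passed the test. Of all genes tested 48.4% had higher and 51.6% lower values in LKO. Of 12 CDKs and cyclins, the kinases that CDK inhibitors bind and their partners, 6 had higher and 6 lower values in LKO, with 0 past the test (median log2 fold change 0.00). The smallest p belonged to the D cyclin Ccnd3, at 25.1 ± 4.92 CPM (Flox) against 21.1 ± 1.996 CPM (LKO; SD, n = 5 each; edgeR, adjusted p = 0.655). Ccna2, the cyclin of S phase, averaged 0.830 ± 0.673 and 0.485 ± 0.235 CPM. Of 13 pocket proteins and E2F factors, which the kinases act on, 7 had higher and 6 lower values and 0 passed. E2f1 averaged 4.48 ± 0.692 CPM (Flox) and 5.38 ± 0.257 CPM (LKO; edgeR, adjusted p = 0.652), and Tfdp2, a partner of E2F factors, at 12.1 ± 1.05 and 13.9 ± 1.92 CPM.

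Of 18 regulators of CDK inhibitor transcription and turnover 8 had higher and 10 lower values, with 0 past the test (median -0.07). Id3, an inhibitor of bHLH factors, averaged 58.9 ± 25.5 CPM (Flox) and 27.8 ± 4.44 CPM (LKO). It was the only one of the 18 with an unadjusted p under 0.05 (edgeR, adjusted p = 0.652), where 7.51% of all genes lay under it. Tbx3, a repressor of the Cdkn2a locus, was at 47.0 ± 16.9 and 28.4 ± 10.8 CPM. Of 18 p53 targets 6 had higher and 12 lower values (51.6% of all genes were lower) and 0 passed (median -0.09). The death receptor Fas was at 21.0 ± 8.61 against 14.03 ± 3.44 CPM and the kinase Plk2 at 5.83 ± 2.23 against 8.01 ± 1.34 CPM. Trp53 had a log2 fold change of 0.14 ± 0.10 and Mdm2 of -0.08 ± 0.09 (SE; edgeR, adjusted p = 0.698 and 0.797).

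Of the 18 senescence genes 12 could be tested, since Il6, Cxcl2, Ccl7, Mmp3, Mmp13 and Tnf were under the count filter. Higher values were found for 5 and lower for 7, and 0 passed (median -0.18). The chemokine Cxcl1 averaged 34.96 ± 36.4 CPM (Flox) and 12.4 ± 8.50 CPM (LKO). Of 23 genes of mitosis and DNA replication 4 had higher and 19 lower values in LKO (51.6% of all genes were lower), with 0 past the test (median -0.28). Top2a, the topoisomerase of dividing cells, was at 2.73 ± 1.47 and 1.19 ± 0.544 CPM (edgeR, adjusted p = 0.652), and Rrm2, a ribonucleotide reductase subunit, at 4.26 ± 1.73 and 6.21 ± 1.60 CPM.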

How the data were processed

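The labels' protocols describe Trizol RNA from liver homogenate and oligo-dT selection. The authors deposited raw read counts per Ensembl gene, 1 column per library. Per the submitters' processing notes, bcl2fastq, STAR 2.5.1a, Subread, featureCounts 1.4.6-p5 and GRCm38 were used. The sources used here do not state strandedness, multimapping or annotation release. After 287 repeated identifiers with identical counts were dropped, 55487 genes remained, and edgeR 4.0.16 (R 4.3.3) kept 15894 with filterByExpr defaults. Libraries were scaled by TMM and tested by the robust quasi-likelihood F test without covariates, two-sided, with Benjamini-Hochberg adjustment over all tested genes. SEs came from the F statistic and 95% intervals from SE on 8 residual degrees of freedom. DESeq2 1.42.0, limma 3.58.1 (voom with quality weights), library totals, no filter, left-out libraries and score covariates were alternatives. Log2 CPM used a prior count of 2. Permutation tests (scipy 1.17.1) used 100000 pairings, or all 720 for 6 libraries, two-sided. A permutation p over all 10 libraries had been planned for Cdkn1a and is not given, because its values form 2 sets. Positions and exon lengths are from GENCODE M21. The fit was tested on simulated data.

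The CDK inhibitors and all lists were chosen with earlier results of these data known. Named genes were the 7 CDK inhibitors, Trp53, Mdm2, in each list up to 4 past the threshold or else the 2 with the smallest p, the 10 genes most and 5 least like Cdkn1a, and the 3 most like each other CDK inhibitor. Those of lists not set against the CDK inhibitors are left out. A gene that the rule names is not reported here.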

Additional observations from a re-analysis of the deposited data

Results flagged for a closer look

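Of 56 groups of 5 libraries checked, 2 held a library far from the other 4 by Dixon's criterion (above 0.71), and chance gives about 1 in 20. Cdkn1a in LKO column 1 was at 4.04 log2 CPM, while the other 4 LKO libraries were at 2.19 to 2.53. The same library had the lowest Dbp of the LKO libraries (3.13 CPM, against 34.5 to 111). The cholangiocyte marker score of LKO column 5 was 0.57, while the other 4 LKO libraries were at 1.34 to 1.57. Cdkn2c and Cdkn1c were highest in that library.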

How the results depend on the processing

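Over 17 alternatives the 7 CDK inhibitors gave 119 log2 fold changes. Of these 113 kept their direction with none past the threshold, and 6 turned in direction. Among the 113 are the DESeq2 values of Cdkn1c, Cdkn2a, Cdkn2b, Cdkn2c and Cdkn2d, which had no adjusted p to set against it. With single libraries left out, Cdkn1c ranged from -0.40 to 0.0185 (without LKO column 3) and Cdkn2c from -0.23 to 0.22. With the acute phase score in the model Cdkn2a was at 0.0906, and with the clock score Cdkn2c was at -0.0929. The count of CDK inhibitors called was 0 under every alternative run. DESeq2 called 10 genes where edgeR called 0. The number of pairs among the other CDK inhibitors past the threshold (1) was 0 to 1 with single libraries left out and 0 without Flox 2 and 3, where Cdkn2a with Cdkn2c had r = 0.86 (permutation p = 0.00667, adjusted p = 0.1001). These fits have fewer libraries; the cause was not tested further. The choices on pairs and the clock score were made after seeing the data. Leaving libraries out of the 6 below the Cdkn1a gap was not run, because it leaves 5. Other scalings kept the count of measures at 0. No paired analysis was run, because the sample labels used here give no litter or cage for a library, and the titles number Flox 1 to 5 and LKO 6 to 10. The tests thus take no account of a litter or cage shared between libraries. Cdkn1c, Cdkn2a and Cdkn2b had the fewest counts, 8 to 71 a library, while the largest SE was that of Cdkn1a (0.64).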
